A study of Rattus norvegicus with 16 samples.

Results

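Potassium channels are described here through 41 genes for their pore-forming and electrically silent subunits, chosen by name from a table of 33294 genes counted in rat brain RNA. All 41 were in the table, and all 41 passed the filter on low counts that left 17856 genes to be tested. Poly(A) RNA was sequenced from tissue labelled as central amygdala of adult rats with perinatal exposure to the synthetic opioid fentanyl or to saline as its control. Each exposure had 6 males and 2 females. All of the animals, saline groups included, had gone through sessions that the labels call IVSA without spelling it out, and the tissue is that of adults 1 day past their last session. Strain, age in days, dose and litter are not given in the labels used here, so a p-value here covers the variation from animal to animal alone, and litter mates, if any, count as separate.

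Potassium channels let potassium leave the cell, or return to it, and so set the resting potential, end action potentials and decide how often a neuron fires. Voltage-gated (Kv) subunits assemble as tetramers, inwardly rectifying (Kir) channels hold the membrane near the potassium potential, K2P channels carry leak, and the BK, SK and Slack families open with calcium or sodium. The G protein-gated Kir3 channels are textbook effectors of opioid receptors, and Kir2 and A-type Kv4 channels are known for setting the quiet resting state of striatal spiny neurons.

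The promoters of 5 genes on which the results below turn are shown first, as the 250 bases before the annotated start, 5′ to 3′ on the gene's strand. They are RefSeq sequences with GRCr8 coordinates, while the reads were counted on rn7. Kcnk2, Kcnd2 and Kcnj4 followed the level of striatal markers across libraries, and Kcnc1 and Kcnj10 followed glial markers. Capitals mark the GC box GGGCGG on either strand, with overlapping matches joined. Kcnk2 has 2 starts in the table, at chr13:103438643-103438892 and chr13:103494687-103494936, both on the minus strand. Kcnd2 lies at chr4:50742235-50742484 on the plus strand, Kcnj4 at chr7:112954548-112954797 on the minus strand, Kcnc1 at chr1:106038997-106039246 on the plus strand and Kcnj10 at chr13:87334260-87334509 on the plus strand.
Kcnk2, first start: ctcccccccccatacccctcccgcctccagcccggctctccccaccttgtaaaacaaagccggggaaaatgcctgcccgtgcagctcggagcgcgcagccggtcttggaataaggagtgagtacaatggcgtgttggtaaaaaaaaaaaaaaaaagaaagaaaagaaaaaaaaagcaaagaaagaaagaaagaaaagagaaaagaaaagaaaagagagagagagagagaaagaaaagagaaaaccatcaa
Kcnk2, second start: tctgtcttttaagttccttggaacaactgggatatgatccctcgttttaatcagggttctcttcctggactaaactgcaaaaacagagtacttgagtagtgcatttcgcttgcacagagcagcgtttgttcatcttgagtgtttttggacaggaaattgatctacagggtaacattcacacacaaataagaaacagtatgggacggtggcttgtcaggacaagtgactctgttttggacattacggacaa
Kcnd2: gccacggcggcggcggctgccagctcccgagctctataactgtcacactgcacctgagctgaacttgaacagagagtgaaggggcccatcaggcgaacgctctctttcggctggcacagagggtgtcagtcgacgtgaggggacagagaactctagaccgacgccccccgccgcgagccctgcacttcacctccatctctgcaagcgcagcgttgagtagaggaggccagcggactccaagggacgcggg
Kcnj4: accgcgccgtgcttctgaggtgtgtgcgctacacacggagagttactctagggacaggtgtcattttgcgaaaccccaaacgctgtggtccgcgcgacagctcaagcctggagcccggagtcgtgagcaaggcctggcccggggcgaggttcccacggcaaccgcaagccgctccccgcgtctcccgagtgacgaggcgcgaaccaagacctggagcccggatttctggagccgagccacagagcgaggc
Kcnc1: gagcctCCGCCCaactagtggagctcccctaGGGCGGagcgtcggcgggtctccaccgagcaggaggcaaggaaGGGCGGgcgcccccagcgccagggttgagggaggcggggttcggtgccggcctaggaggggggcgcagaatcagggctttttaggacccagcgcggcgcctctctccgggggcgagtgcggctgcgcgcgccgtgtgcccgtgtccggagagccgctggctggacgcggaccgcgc
Kcnj10: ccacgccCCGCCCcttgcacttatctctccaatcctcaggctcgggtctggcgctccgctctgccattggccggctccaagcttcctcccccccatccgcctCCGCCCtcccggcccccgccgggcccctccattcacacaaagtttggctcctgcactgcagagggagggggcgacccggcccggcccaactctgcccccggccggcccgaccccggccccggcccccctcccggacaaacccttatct
The GC content of these stretches was 45.6% and 42.0% for Kcnk2, 64.0% for Kcnd2, 65.6% for Kcnj4, 74.4% for Kcnc1 and 72.4% for Kcnj10. Kcnc1 held 3 GC boxes and Kcnj10 held 2, and no GC box was in the windows of Kcnk2, Kcnd2 or Kcnj4. Other genes broke that division: Kcna6, with the highest astrocyte correlation, had 0, and of genes that correlated positively with the striatal markers Kcnj2 had 1 and the 2 starts of Kcnt1 had 3 and 1. Over the 28 of 41 genes that had an entry, with 31 promoters, 16 held at least 1 GC box on either strand (51.6%), against 30.5% of all 33469 promoters of the same length. The cAMP response element TGACGTCA, the AP-1 site TGACTCA and the letters TATAAA were in 0 of the 31 windows, against 1.59%, 4.05% and 12.9% of all promoters. These matches describe letters in a window and do not show a factor's binding.

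Total counts per library ran from 12879701 to 22426428, and the 41 genes together took 0.212% to 0.304% of them. The mitochondrial share of counts was 8.44% to 17.7%, highest in fentanyl male 2, which was also the lowest library for 9 of the 41 genes. Saline male 3 stood apart by its cortical markers, whose mean was 3.71 log2 CPM against 1.08 or less in the other libraries; CPM are counts divided by the TMM-adjusted library total. The label central amygdala was checked against marker genes. Markers of striatal spiny neurons had library means of 6.88 to 9.24 log2 CPM, with Drd1, a dopamine receptor, at 92.7 to 344 CPM. The 7 of 8 central amygdala markers that could be tested had means of 2.82 to 5.21, with Prkcd, a kinase that marks a class of its neurons, at 11.2 to 33.3 CPM. Tac2, also of that list, was not found under that symbol.

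The comparison of 8 fentanyl with 8 saline animals asks which channel transcripts differed in adulthood by perinatal exposure. No potassium channel gene passed the test over both sexes, with sex as a term in edgeR's quasi-likelihood fit and Benjamini-Hochberg adjustment over all genes tested; 0.0784% of all genes tested passed it. The gene with the smallest p was Kcnk2, a leak channel opened by stretch, lipids and heat. At an unadjusted p under 0.05 there were 8 channel genes, all of them higher after fentanyl, where the background over all genes tested was 7.27%, made up of 3.70% higher and 3.57% lower. The 8 were Kcnk2, Kcns2, Kcnn1, Kcnj11, Kcnh7, Kcnh4, Kcnh5 and Kcnt1. Of the 41, 23 had a log2 fold change above 0, against 47.7% of all genes tested, and the median was 0.04 against -0.01 over all genes. No channel gene had fentanyl and saline libraries that did not overlap, against 0.101% of all genes tested. The members' fold changes ran from -0.48 for Kcnc2 to 0.76 for Kcnk2.

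**Figure D1:**
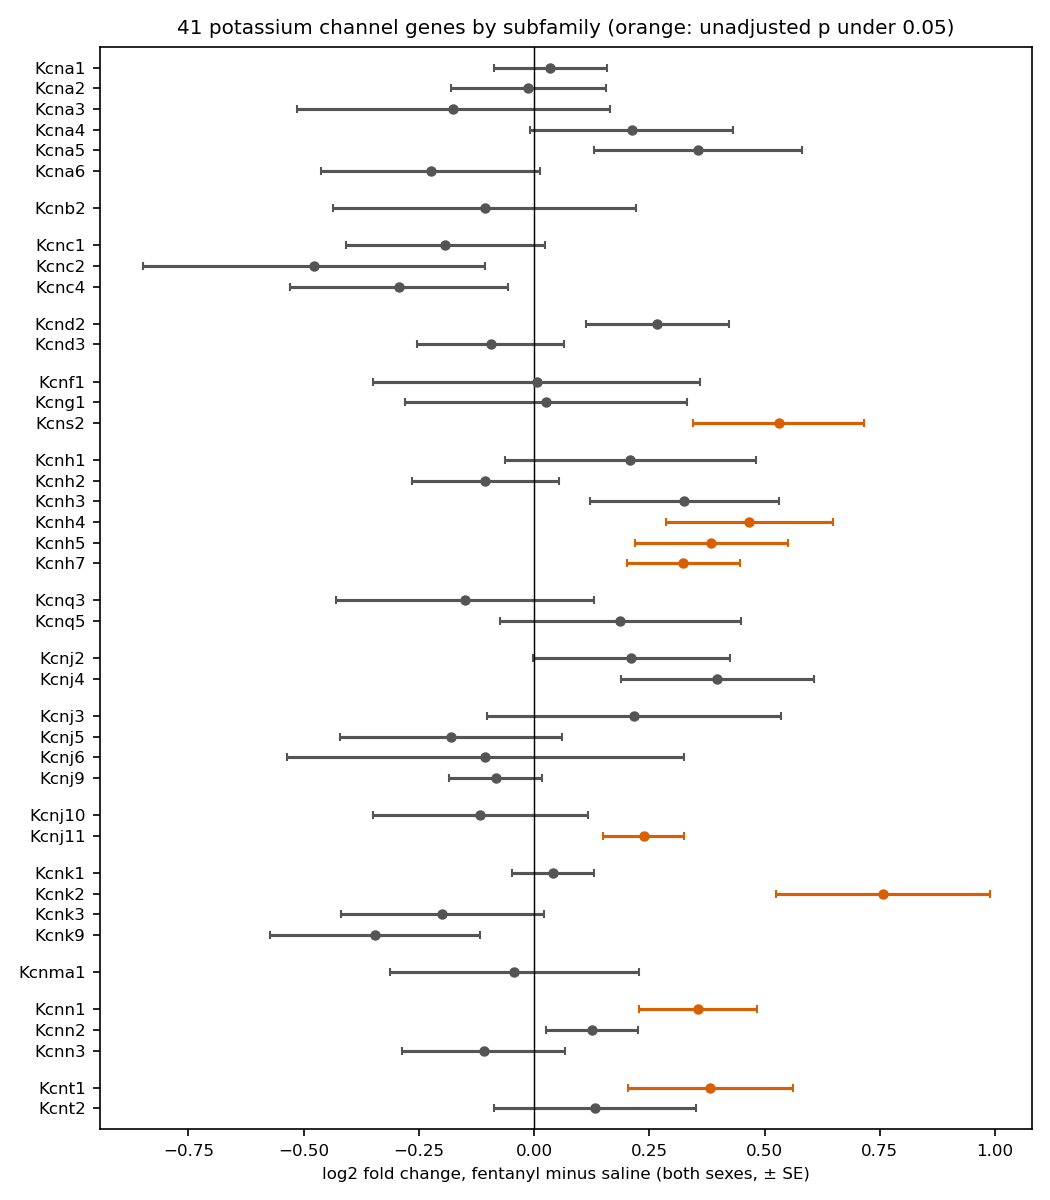
Log2 fold change of each of the 41 potassium channel genes (x axis, fentanyl minus saline over both sexes, points with SE bars), with genes on the y axis grouped by subfamily. The 8 genes in orange had an unadjusted p under 0.05, all lie to the right of 0, and none passed the adjusted threshold.

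Among the leak channels (K2P), Kcnk2 ran from 40.1 through a median of 64.3 to 113 CPM in the 8 saline libraries and from 86.9 through 111 to 254 CPM in the 8 fentanyl libraries. Every fentanyl library lay above 6 of the 8 saline libraries, and the other 2, saline males 1 and 2 at 113 and 112 CPM, lay inside the fentanyl range; the highest value was that of fentanyl female 2. The log2 fold change was 0.76 ± 0.23 (SE; unadjusted p = 0.00469, adjusted p = 0.415 by edgeR). Without fentanyl female 2 it was 0.59, and over the fits that left out 1 library each the adjusted p of edgeR ran from 0.100 to 0.718. Kcnk1, a weakly conducting leak subunit, was among the steadiest genes at 41.9 to 63.3 CPM over all libraries (0.04 ± 0.09). The acid-sensitive leak channels Kcnk3 (-0.20 ± 0.22) and Kcnk9 (-0.34 ± 0.23) had values below 0. Kcnk3 ran from 5.85 CPM in saline male 2 to 23.6 CPM in saline male 6, and so spanned its whole range within the saline males.

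Among the inward rectifiers, Kir2 channels rectify strongly and keep spiny neurons at a negative rest. Kcnj4 ran from 40.9 through 84.3 to 150 CPM in saline and from 96.6 through 112 to 163 CPM in fentanyl libraries, with saline males 1 and 2 again above the other saline libraries (0.40 ± 0.21). Kcnj2 ran from 24.0 through 37.5 to 81.3 CPM in saline and from 40.4 through 51.2 to 64.1 CPM in fentanyl libraries, so that the fentanyl libraries lay inside the saline range (0.21 ± 0.21).

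The Kir3 genes, whose channels open when Gi/o-coupled receptors release their beta-gamma subunits, showed no shift that passed the test. Kcnj3, the subunit common to most neuronal channels of the family, ran from 2.23 CPM in fentanyl male 2 to 18.0 CPM in fentanyl male 1 (0.22 ± 0.32). Kcnj6, which forms the channel with Kcnj3 or alone, ran from 3.31 CPM in fentanyl male 2 to 35.8 CPM in saline male 3 (-0.11 ± 0.43). Kcnj9, a partner subunit that moves the channel between compartments, stayed between 14.1 and 18.2 CPM in all libraries but saline male 3, at 24.6 CPM (-0.08 ± 0.10). Kcnj5, known best from heart and adrenal gland, had 1.91 to 5.81 CPM (-0.18 ± 0.24). Fentanyl male 2, lowest for Kcnj3 and Kcnj6, and saline male 3, highest for Kcnj6 and Kcnj9, are the libraries that stood apart above. Without both, the fold changes of Kcnj3 and Kcnj6 were 0.57 and 0.53, neither past the test (adjusted p = 0.543 and 0.656 by edgeR).

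Kcnj10 carries the main potassium conductance of astrocytes and is also found in oligodendrocytes. It ran from 105 through 219 to 311 CPM in saline and from 109 through 182 to 246 CPM in fentanyl libraries, with broad overlap (-0.12 ± 0.23). Kcnj11, the pore of the ATP-sensitive channel that couples metabolism to firing, ran from 31.2 through 38.8 to 44.7 CPM in saline and from 37.7 through 44.5 to 55.4 CPM in fentanyl libraries. The ranges overlapped between 37.7 and 44.7 CPM, and the SE was small beside the difference (0.24 ± 0.09; adjusted p = 0.574 by edgeR).

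In the ether-a-go-go group (EAG, ERG and ELK channels), which shape threshold and the return from bursts, 5 of 6 genes had a log2 fold change above 0 and 3 had an unadjusted p under 0.05. Over all genes tested these shares were 47.7% and 7.27%. The group was not tested as a set. Kcnh4, an ELK channel, ran from 18.6 through 39.8 to 58.7 CPM in saline and from 39.6 through 44.5 to 73.8 CPM in fentanyl libraries (0.47 ± 0.18, adjusted p = 0.591). Saline males 3, 4, 5 and 6 lay below every fentanyl library, and the highest fentanyl libraries were both females. Kcnh7, an ERG channel, ran from 18.2 through 24.4 to 31.9 CPM in saline and from 22.9 through 29.2 to 40.5 CPM in fentanyl libraries (0.32 ± 0.12, adjusted p = 0.591). Kcnh5, an EAG channel, had 26.8 to 59.2 CPM in saline and 27.4 to 60.7 CPM in fentanyl libraries (0.38 ± 0.17, adjusted p = 0.654), and 7 of the 8 fentanyl libraries lay at 44.7 CPM or more, with fentanyl male 2 alone at the low end. Kcnh3 (0.33 ± 0.20), an ELK channel of forebrain neurons, and Kcnh1 (0.21 ± 0.27) had wider errors. Kcnh2, the ERG channel best known for cardiac repolarisation, was the group's gene below 0 (-0.11 ± 0.16).

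Of the 6 Shaker-type (Kv1) genes, 3 had values above 0 and 3 below, and none had an unadjusted p under 0.05. Kcna1, an axonal channel that limits repetitive firing, ran from 164 through 265 to 358 CPM in saline and from 242 through 256 to 286 CPM in fentanyl libraries, so that its fentanyl values were packed inside the saline range (0.04 ± 0.12). Kcna4, which gives an inactivating current, and Kcna5 had 0.21 ± 0.22 and 0.36 ± 0.23, and Kcna6 had -0.22 ± 0.24. Kcna3, better known from lymphocytes and microglia, was counted at 0.431 to 4.71 CPM (-0.18 ± 0.34), and Kcna2, the usual axonal partner of Kcna1, had -0.01 ± 0.17.

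The Kv3 genes, whose fast channels allow high firing rates in interneurons, all had values below 0, as did 9333 of the 17856 genes tested. Kcnc2 ran from 9.73 through 64.3 to 85.4 CPM in saline and from 11.8 through 44.1 to 65.3 CPM in fentanyl libraries (-0.48 ± 0.37), Kcnc1 from 46.9 through 107 to 155 and from 62.2 through 93.5 to 130 CPM (-0.19 ± 0.22), and Kcnc4 had -0.29 ± 0.24. Their lowest library was saline male 2 for all 3. Kcnb2, a delayed rectifier, had 1.51 to 9.04 CPM (-0.11 ± 0.33). Kcnd2, the A-type channel of dendrites, ran from 94.5 through 142 to 227 CPM in saline and from 155 through 170 to 213 CPM in fentanyl libraries (0.27 ± 0.16), while Kcnd3, the other A-type gene, had -0.09 ± 0.16.

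Silent subunits make no channel alone but alter the delayed rectifiers they join. Kcns2 ran from 15.5 through 31.2 to 52.7 CPM in saline and from 38.6 through 46.3 to 59.6 CPM in fentanyl libraries. Each fentanyl library lay above 5 of the 8 saline libraries, and saline males 1 and 2 and saline female 2 reached into the fentanyl range. Its log2 fold change was 0.53 ± 0.18 (adjusted p = 0.538 by edgeR). Kcnf1 (0.01 ± 0.36) and Kcng1 (0.03 ± 0.31) had wide errors; Kcnf1 ran from 6.40 CPM in fentanyl male 2 to 61.8 CPM in saline male 1. The M-current genes, whose channels are closed by muscarinic receptors, had 0.19 ± 0.26 for Kcnq5 and -0.15 ± 0.28 for Kcnq3.

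Of the calcium-activated channels, the BK gene Kcnma1 reached 48.9 CPM in saline and lay between 22.9 and 42.0 CPM in fentanyl libraries other than male 2, which had 9.35 CPM (-0.04 ± 0.27). SK channels produce an afterhyperpolarisation that spaces spikes. Kcnn1 ran from 8.72 through 11.3 to 15.5 CPM in saline and from 12.1 through 13.9 to 23.7 CPM in fentanyl libraries (0.36 ± 0.13, adjusted p = 0.553 by edgeR). Fentanyl female 2 held the highest value, and saline males 1 and 2 and saline female 1 reached into the fentanyl range. Kcnn2 (0.13 ± 0.10) and Kcnn3 (-0.11 ± 0.18) differed less. Of the sodium-activated channels, Kcnt1 ran from 125 through 180 to 276 CPM in saline and from 199 through 231 to 414 CPM in fentanyl libraries (0.38 ± 0.18, adjusted p = 0.686), and Kcnt2 had 0.13 ± 0.22.

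**Figure D2:**
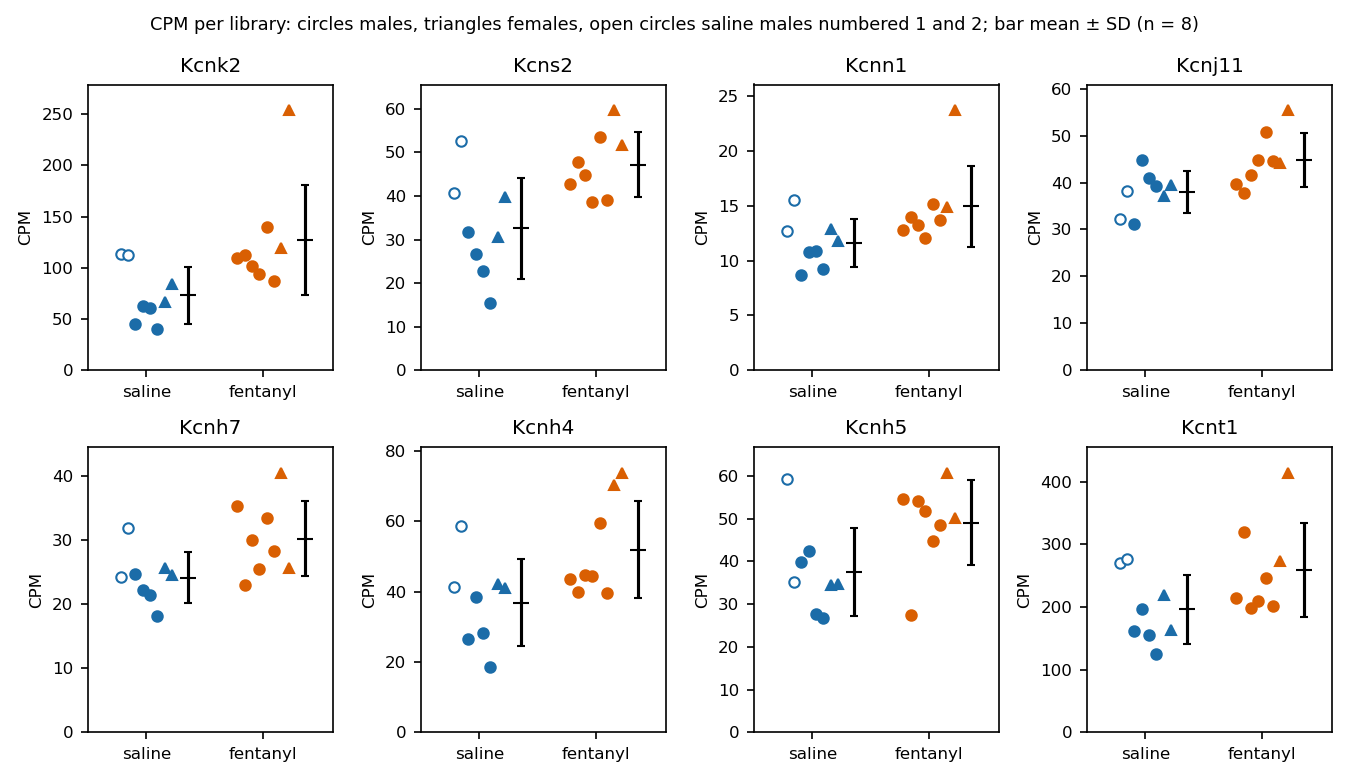
CPM (y axis, from 0) in each library for the 8 genes with an unadjusted p under 0.05, with saline and fentanyl on the x axis; each point is 1 animal and the bar is the mean ± SD of 8. For Kcnk2, Kcns2, Kcnn1, Kcnh4 and Kcnt1 the saline males numbered 1 and 2 (open circles) lie among the fentanyl libraries, and for Kcnk2, Kcnn1, Kcnj11, Kcnh4 and Kcnt1 fentanyl female 2 is the highest point.

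In males alone, 6 against 6, no channel gene passed (background 0.0392% of all genes tested), and none of the 41 had male groups that did not overlap (background 0.375%). Kcns2 (0.49 ± 0.22) and Kcnk2 (0.57 ± 0.26) had an unadjusted p under 0.05, both higher after fentanyl, where 4.13% of all genes tested did, 1.99% higher and 2.14% lower. Next was Kcnh7 (0.30 ± 0.15). The adjusted p was 0.9998 for each of these by edgeR. Of the 41, 24 had a value above 0, against 48.3% of all genes, and the median was 0.06 against -0.01, with 0.01 without fentanyl male 1 and 0.16 without fentanyl male 2. In these libraries 12 of 12 striatal spiny neuron markers (median log2 fold change 0.40) and 10 of 12 myelin markers (median 0.06) were above 0.

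The female groups of 2 borrow their error from the fit of all 4 groups, and no channel gene passed there either, and the background was 0% by the same edgeR fit, with 2555 genes at an unadjusted p under 0.05 and 20 genes called by DESeq2. At an unadjusted p under 0.05 there were 7 higher and 1 lower channel genes, where 14.3% of all genes tested reached that level, 6.92% higher and 7.39% lower. Kcnh3 had 133 and 160 CPM in the fentanyl females and 70.3 and 65.3 CPM in the saline females (1.11 ± 0.35, adjusted p = 0.333 by edgeR). Kcnk2 had 119 and 254 CPM against 66.3 and 84.4 CPM (1.31 ± 0.45), and its value was 0.66 without fentanyl female 2. Kcna5 had 37.0 and 43.2 CPM against 21.6 and 19.7 CPM (0.96 ± 0.43), and Kcnh4 had 70.3 and 73.8 CPM against 42.1 CPM or less (0.79 ± 0.36). In these 4 genes both fentanyl females lay above both saline females. The same held for Kcnt1 (0.84 ± 0.34), Kcnn1 (0.64 ± 0.25) and Kcnj11 (0.38 ± 0.18), and the values of the first 2 of these moved to 0.51 and 0.27 without fentanyl female 2, and that of Kcnj11 to 0.21. Kcnk9 was the lower gene, at 4.85 and 5.58 CPM against 5.75 and 14.4 CPM (-0.95 ± 0.44), and its value was -0.15 without saline female 2. Of the 41, 22 had a value above 0, against 49.4% of all genes, and the median was 0.26 against -0.01, with 0.10 without fentanyl female 1 and 0.38 without saline female 2. In the same 4 libraries 12 of 12 striatal markers were above 0 (median 0.87) and 0 of 12 myelin markers were (median -1.01), and with both marker means as covariates the median of the 41 in females was 0.03. The fentanyl females carry library numbers 1 and 2 in the labels and the saline females 10 and 11, so exposure and number set cannot be told apart in females.

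The fentanyl effect in females minus that in males was tested as a contrast of its own. No channel gene passed, against a background of 0% by edgeR, with 1470 genes at an unadjusted p under 0.05 and 4 genes called by DESeq2. Kcnh3 was the channel gene with an unadjusted p under 0.05 in this edgeR fit, at a difference of 1.04 ± 0.41 (adjusted p = 0.570). Over all genes tested 8.23% reached that level, 4.31% with a higher and 3.93% with a lower difference. Of the 41, 23 had a difference above 0, against 49.6% of all genes, with a median of 0.11. In males its fold change was 0.07 ± 0.20. Next were Kcng1 (1.31 ± 0.64), at -0.29 ± 0.32 in males and 1.01 ± 0.56 in females, and Kcna2 (-0.69 ± 0.36), at 0.16 ± 0.18 and -0.53 ± 0.31. For Kcng1 the difference was 0.23 without fentanyl female 2, whose 87.1 CPM was the highest of the 16 libraries, and for Kcna2 it was -0.20 without saline female 2.

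The saline males carry library numbers 1, 2 and 9 to 12 in the labels, which do not say what the numbers mean, while the fentanyl males carry 1 to 6. Of the 41 genes, 30 did not overlap between the 2 saline males numbered 1 and 2 and the 4 numbered 9 to 12, 18 of them higher and 12 lower in the first 2, against 44.8% of all genes tested. Each set was then compared with the 6 fentanyl males, which both comparisons share. Against the 4 numbered 9 to 12, Kcnk2 (1.06 ± 0.21) and Kcns2 (0.88 ± 0.17) were higher in fentanyl males (adjusted p = 0.0463 for each by edgeR). In that comparison exposure and number set cannot be told apart. Against the 2 numbered 1 and 2, which was added once the data had been seen, 4 channel genes were higher and 6 were lower. The higher ones were Kcna6 (0.95 ± 0.23), Kcnj10 (0.91 ± 0.21), Kcnc1 (0.92 ± 0.18) and Kcnk3 (0.94 ± 0.21). The lower ones were Kcna4 (-0.63 ± 0.14), Kcna5 (-0.52 ± 0.13), Kcnq5 (-0.82 ± 0.15), Kcnj2 (-0.61 ± 0.16), Kcnj4 (-0.42 ± 0.11) and Kcnn3 (-0.65 ± 0.16). In all genes tested, 71 (0.400%) and 955 (5.47%) passed in these comparisons. No channel gene was called in both.

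Side by side, Kcnk2 had 1.06 ± 0.21 against the saline males numbered 9 to 12 and -0.07 ± 0.24 against those numbered 1 and 2. Kcns2 had 0.88 ± 0.17 and -0.08 ± 0.15, and Kcnj4 had 0.74 ± 0.15 and -0.42 ± 0.11. Kcnc1 had -0.34 ± 0.14 and 0.92 ± 0.18, and Kcnj10 had -0.15 ± 0.21 and 0.91 ± 0.21. Kcnj11 had 0.15 ± 0.11 and 0.29 ± 0.13, and Kcnk1 had 0.09 ± 0.10 and 0.20 ± 0.14. These 7 genes were picked after their values were seen, and the plot of both comparisons shows all 41. In CPM, Kcnj4 was at 142 and 150 in saline males 1 and 2, at 40.9 to 80.1 in those numbered 9 to 12 and at 96.6 to 127 in fentanyl males, so that the fentanyl males lay between the 2 saline sets without overlap. Kcnc1 was at 65.5 and 46.9, at 96.5 to 155 and at 86.5 to 130 CPM in the same order.

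**Figure D3:**
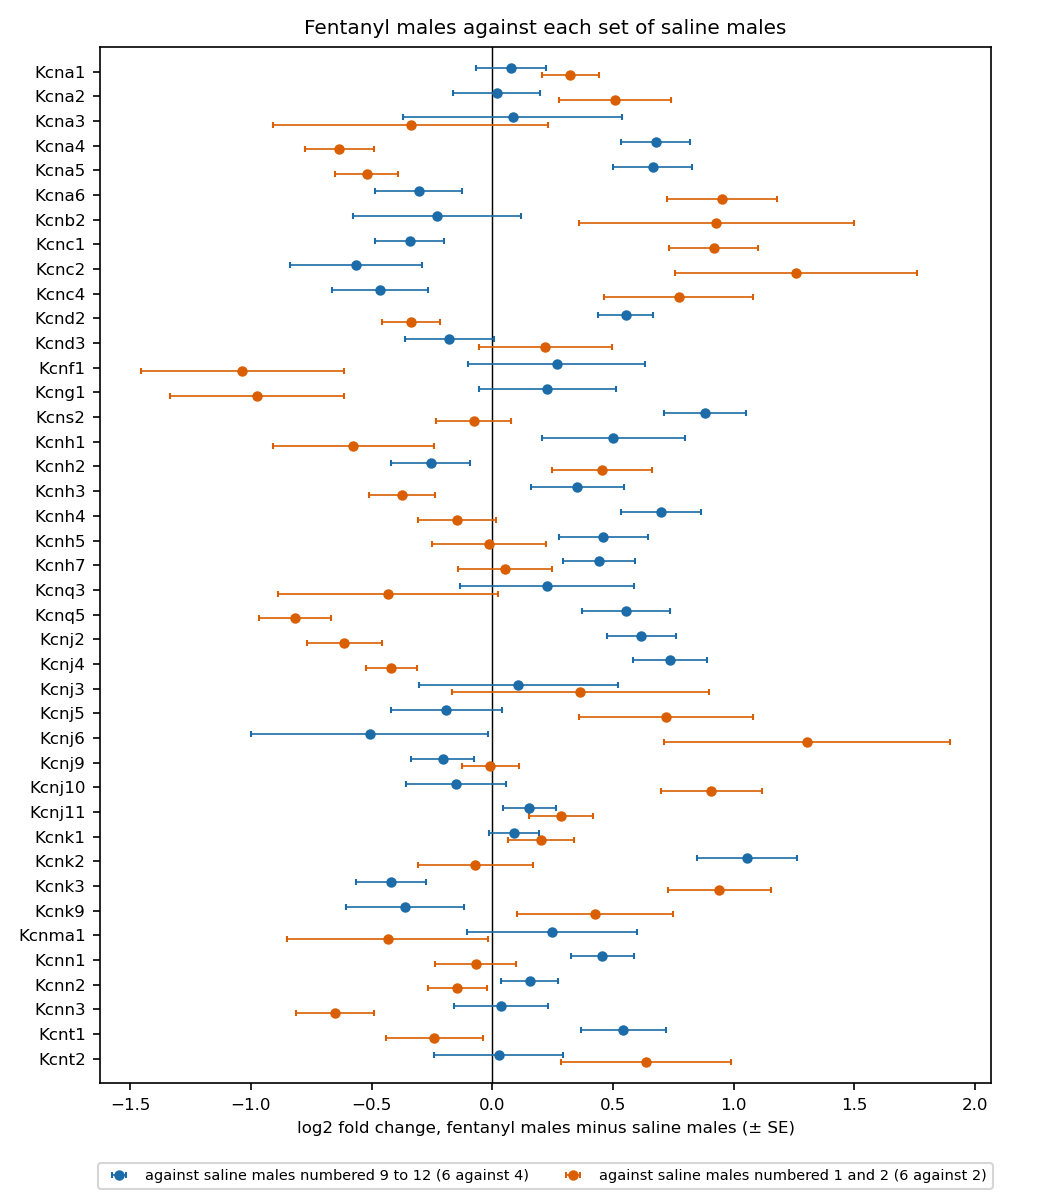
Log2 fold change (x axis, points with SE bars) of fentanyl males minus saline males for the 41 genes (y axis), once against the 4 saline males numbered 9 to 12 (blue) and once against the 2 numbered 1 and 2 (orange). Both use the same 6 fentanyl males; Kcnk2 lies at 1.06 and -0.07, Kcnj4 at 0.74 and -0.42, and Kcnc1 at -0.34 and 0.92.

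Over both sexes, leaving out saline males 1 and 2 gave 15 channel genes past the adjusted threshold, where 1226 (6.90%) of all genes tested passed. In that fit every saline library is numbered 9 to 12 and every fentanyl library 1 to 6. Exposure and number set thus cannot be told apart there. Of the 15, 13 were higher after fentanyl, led by Kcnk2 (1.13 ± 0.17, adjusted p = 0.00407 by edgeR), Kcns2 (0.81 ± 0.14), Kcnj4 (0.78 ± 0.12), Kcna5 (0.75 ± 0.14) and Kcnh4 (0.73 ± 0.13). The others higher were Kcnq5, Kcna4, Kcnt1, Kcnj2, Kcnd2, Kcnh5, Kcnn1 and Kcnh7, from 0.67 for Kcnq5 to 0.43 for Kcnh7. The 2 lower were Kcnc1 (-0.44 ± 0.12) and Kcnk3 (-0.44 ± 0.12). With limma voom and sample quality weights, which give less weight to libraries far from their group, 11 channel genes were called over both sexes, all higher, among 1031 genes (5.77%), and 1 in males, Kcns2, among 87 (0.487%). DESeq2 called no channel gene among the 87 genes it called over both sexes.

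Marker genes of the tissue's cell types moved with these differences. Over both sexes, 12 of 12 striatal spiny neuron markers had a log2 fold change above 0 (median 0.55), with list means of 6.88 to 8.94 log2 CPM in saline and 8.21 to 9.24 in fentanyl libraries. The same mean was 8.46 and 8.94 in saline males 1 and 2, and 6.88 to 7.73 in those numbered 9 to 12. Of the 12 myelin markers 1 was above 0 (median -0.22), with list means of 7.74 to 9.67 in saline and 7.67 to 9.32 in fentanyl libraries, and 7.74 and 8.09 in saline males 1 and 2. Of the 12 astrocyte markers (median -0.15) and the 8 microglial markers (median -0.22) 0 were above 0, and of the 7 central amygdala markers 3 were (median -0.23). Of the 4 cortical and basolateral markers that could be tested 0 were above 0 (median -1), on a list where saline male 3 stood apart. Of the 7 thalamic and diencephalic markers 2 were above 0 (median -0.35), and of the 4 ependymal markers 1 was (median -0.19). Of the 8 endothelial and mural markers 6 were above 0 (median 0.12), and of the 3 GABAergic markers 3 were (median 0.03). No marker of these lists was called. In bulk tissue, fewer cells of a type and less RNA per cell cannot be told apart.

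The 41 genes were set against the means of 5 marker lists over the 16 libraries, 205 relations in all, each with a two-sided permutation test of 100000 resamples and Benjamini-Hochberg adjustment over the 205. These correlations were not computed for the other genes tested, so no share over all genes stands beside the counts. The counts therefore do not set channel genes apart from other genes. With the striatal mean, 14 genes correlated positively and 8 negatively past the adjusted threshold. The highest were Kcnd2 (Pearson r = 0.95, Spearman rho = 0.95), Kcnk2 (r = 0.94, rho = 0.94) and Kcnh4 (r = 0.93, rho = 0.79), each with the smallest permutation p that the resamples can give for r, 1e-05 (adjusted p = 1.71e-04), and an adjusted permutation p for rho of 2.56e-04, 2.56e-04 and 0.00312. Without the 2 libraries farthest from the median they were 0.92, 0.92 and 0.89. Within the fentanyl libraries they were 0.90, 0.92 and 0.89, and within the saline libraries 0.95, 0.96 and 0.91. Within the 10 libraries numbered 1 to 6 they were 0.83, 0.84 and 0.88, and within the 6 numbered 9 to 12 they were 0.92, 0.97 and 0.86, so that r was at least 0.83 in each subset. Numbers 1 to 6 hold all fentanyl libraries and saline males 1 and 2, so the splits by exposure and by number overlap and are not separate checks. Of the 3 genes, Kcnk2 alone passed after adjustment within fentanyl, all 3 within saline, Kcnk2 and Kcnh4 within numbers 1 to 6, and none within numbers 9 to 12. The lowest were Kcnc2 (r = -0.78, rho = -0.85), Kcnk3 (r = -0.77, rho = -0.84) and Kcnc4 (r = -0.75, rho = -0.81; adjusted permutation p = 0.00454 for r and 0.00267 for rho). Without the 2 farthest libraries these were -0.82, -0.78 and -0.73, and within the libraries numbered 9 to 12 -0.63, -0.67 and -0.45.

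**Figure D4:**
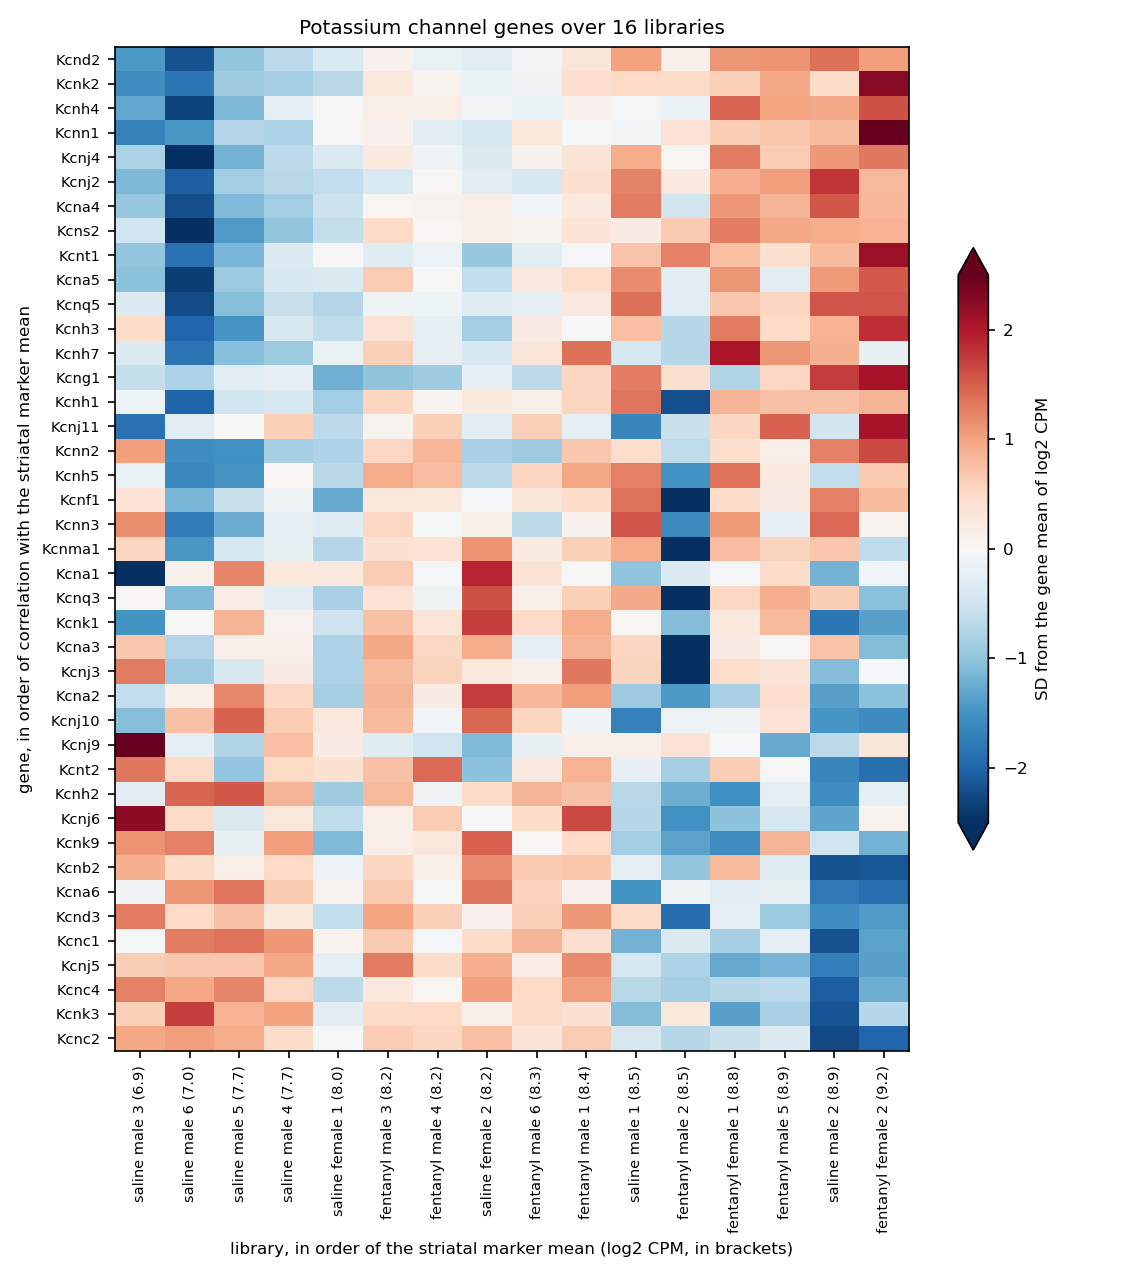
Level of the 41 genes (y axis, in order of their correlation with the striatal marker mean) in the 16 libraries (x axis, in order of that mean, given in brackets in log2 CPM). Colour is the distance from the gene's mean log2 CPM in SD, with a pseudocount of 0.1 CPM. Genes at the top such as Kcnd2 and Kcnk2 turn from low at the left to high at the right, and genes at the bottom such as Kcnc2 and Kcnk3 do the reverse.

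With the myelin mean, 6 genes correlated positively and 13 negatively. Kcnj10 (r = 0.92, rho = 0.82), Kcna6 (r = 0.90, rho = 0.83) and Kcnc1 (r = 0.79, rho = 0.77) were the highest, and Kcnq5 (r = -0.85, rho = -0.85), Kcnn2 (r = -0.84, rho = -0.82) and Kcnh3 (r = -0.83, rho = -0.90) the lowest (adjusted permutation p from 1.71e-04 to 0.00308 for r and from 2.56e-04 to 0.00533 for rho). Without the 2 farthest libraries these were 0.87, 0.82 and 0.72, and -0.77, -0.90 and -0.79. With the astrocyte mean, 13 genes correlated positively and 13 negatively. Kcna6 (r = 0.95, rho = 0.95), Kcnj10 (r = 0.89, rho = 0.91) and Kcnc1 (r = 0.87, rho = 0.90) were again the highest, and Kcnt1 (r = -0.84, rho = -0.90), Kcnq5 (r = -0.78, rho = -0.80) and Kcnh3 (r = -0.75, rho = -0.73) the lowest (adjusted permutation p from 1.71e-04 to 0.00471 for r and from 2.56e-04 to 0.00844 for rho). Without the 2 farthest libraries these were 0.94, 0.84 and 0.94, and -0.79, -0.81 and -0.67. Within the fentanyl libraries Kcna6 and Kcnj10 had 0.95 and 0.95 with the astrocyte mean, and within the saline libraries 0.96 and 0.91. Within the libraries numbered 9 to 12 they had 0.88 and 0.78 with that mean. There Kcnc1 had 0.38, Kcnt1 -0.44, Kcnq5 -0.02 and Kcnh3 -0.49, and none of these relations passed. The myelin and astrocyte means themselves correlated at 0.79 over the 16 libraries, and each with the striatal mean at -0.46 and -0.61, so the relations to the 3 lists are not separate measurements.

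**Figure D5:**
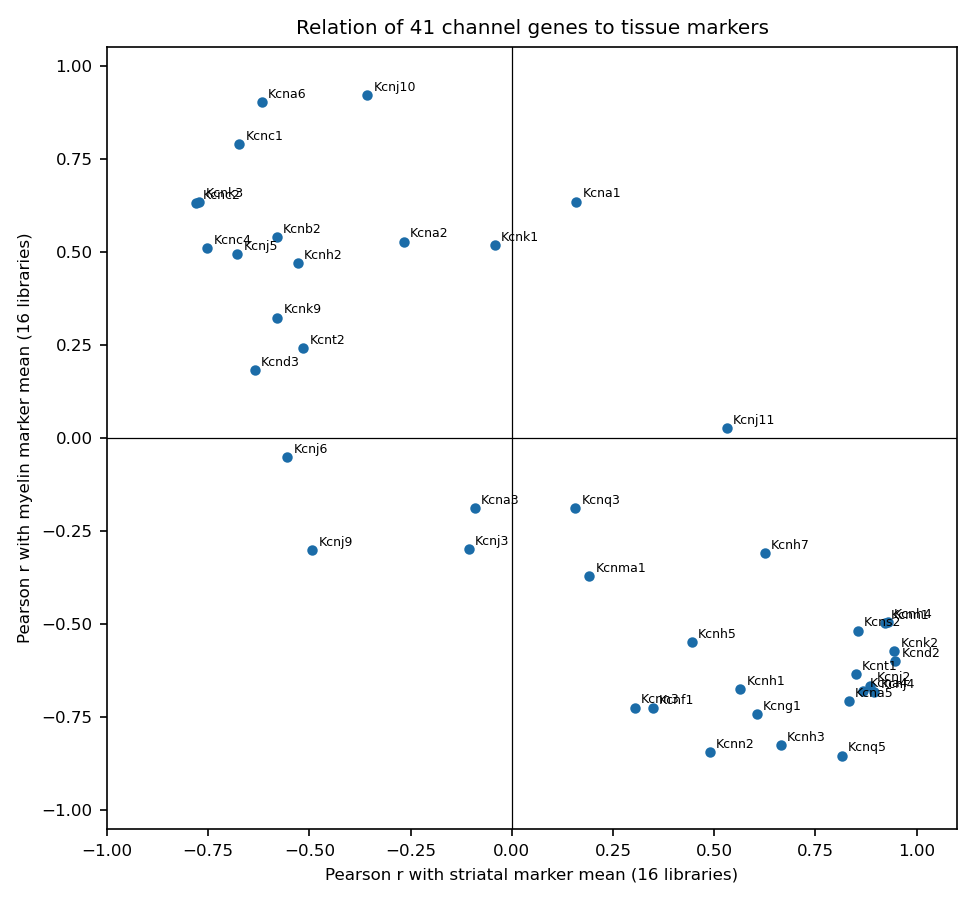
Pearson r of each of the 41 genes over 16 libraries with the striatal marker mean (x axis) and with the myelin marker mean (y axis), 1 point a gene. Kcnd2, Kcnk2 and Kcnh4 lie at the right, with r of 0.93 to 0.95 on the x axis, Kcnj10 and Kcna6 at the top, with 0.92 and 0.90 on the y axis, and Kcnq5, Kcnn2 and Kcnh3 at the bottom.

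With the central amygdala mean, 3 genes correlated positively and 1 negatively. The positive ones were the Kir3 genes Kcnj6 (r = 0.75, rho = 0.62), Kcnj9 (r = 0.75, rho = 0.54) and Kcnj3 (r = 0.64, rho = 0.66), and the negative one was Kcna1 (r = -0.66, rho = -0.41), with adjusted permutation p from 0.00522 to 0.0317 for r. For rho it was 0.0404 for Kcnj6, 0.0241 for Kcnj3, 0.0778 for Kcnj9 and 0.191 for Kcna1. Without the 2 farthest libraries r was 0.82 for Kcnj6, 0.59 for Kcnj3, 0.43 for Kcnj9 and -0.19 for Kcna1, and only that of Kcnj6 passed. The calls of Kcnj9 and Kcna1 thus rested on those libraries. For Kcnj3 r changed less, and it was 0.67 within the fentanyl and 0.79 within the saline libraries. Whether its call was lost through those libraries or through the smaller number of libraries was not tested. Without fentanyl male 2 and saline male 3 that of Kcnj6 was 0.54 and did not pass. Within the fentanyl libraries Kcnj6 had 0.93 and within the saline libraries 0.71. Of the named relations the others below 0 with this mean, Kcnj10 (-0.50) and Kcnj11 (-0.32), did not pass. With the cortical mean, which saline male 3 dominates, Kcnj9 (r = 0.81, rho = 0.26; adjusted permutation p = 0.0470 for r and 0.462 for rho) and Kcnj6 (r = 0.73, rho = 0.74; adjusted p = 0.00471 and 0.00844) passed for r. Without the 2 farthest libraries they were -0.09 and 0.61, and neither passed. The call of Kcnj9 thus rested on those libraries, while r of Kcnj6 changed less. Without fentanyl male 2 and saline male 3 r was 0.34 for Kcnj9 and 0.49 for Kcnj6, also not past the threshold.

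With the striatal and myelin means as covariates, the fit over both sexes called no channel gene and 5 genes in all. Kcnk2 had 0.32 ± 0.10 (adjusted p = 0.365 by edgeR), Kcnh5 0.43 ± 0.18, Kcns2 0.28 ± 0.15, Kcnh7 0.22 ± 0.14 and Kcnj11 0.16 ± 0.11. Kcnh4 (0.12 ± 0.11), Kcnn1 (0.11 ± 0.10) and Kcnt1 (0.12 ± 0.13) had values within about their SE. The fold changes of the 8 genes with an unadjusted p under 0.05 stayed above 0, and those of 19 of the 41 changed sign. The 8 had been picked by a small p in these same data, so the kept sign is no separate evidence. Kcnj6 had 1.16 with the covariates (adjusted p = 0.360 by edgeR) against -0.11 without them.

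Across the 16 libraries the channel genes varied more than most genes: their median SD of log2 CPM was 0.51, against 0.30 over all genes tested, and this was not tested further. The most variable were Kcnc2 (SD 0.94), Kcnj6 (0.90) and Kcnf1 (0.82), and the least variable Kcnk1 (0.17), Kcnj9 (0.18), Kcnn2 (0.19) and Kcnj11 (0.21). Saline male 6, with a striatal mean of 6.96 log2 CPM, was the lowest library for 15 of the 41 genes, saline male 2 for 8, and fentanyl female 2, with the highest striatal mean, was the highest for 10.

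Of 26 genes for proteins that join or modify potassium channels, 25 were tested and none passed in any of the 4 comparisons. Over both sexes 4 were higher and 1 lower at an unadjusted p under 0.05, where 7.27% of all genes tested were at that level. The lower was Kcne5, a small single-span modifier of Kv channels (-1.07 ± 0.27, adjusted p = 0.241 by edgeR). The higher ones were Kcns1, a silent subunit (0.83 ± 0.23, adjusted p = 0.330), Kcnip2, which binds Kv4 channels (0.49 ± 0.21), Kcnab1, a cytoplasmic beta subunit of Kv1 channels (0.45 ± 0.19), and Abcc8, the sulfonylurea receptor that joins Kcnj11 (0.20 ± 0.08). In males 1 was higher and 1 lower, against 4.13% of all genes, in females 2 and 3, against 14.3%, and for the difference between the sexes 0 and 1, against 8.23%. The higher gene in males was again Kcns1 (adjusted p = 0.326 by edgeR). It had 2.85 to 6.83 CPM in fentanyl males and 1.38 to 2.77 CPM in saline males. These male groups did not overlap, as held for 0.375% of all genes tested. Saline female 2, at 4.33 CPM, lay inside the range of the fentanyl males. The lower gene in males was again Kcne5 (adjusted p = 0.889). The median over both sexes was 0.03 against -0.01 over all genes.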

How the data were processed

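The authors deposited a table of raw read counts per gene, 1 column per library, with no normalization. RNA came from a Trizol extraction followed by NEBNext poly(A) library kits, per the labels' protocols. The submitters' processing notes list STAR, HTSeq, Trimmomatic and DESeq2 and the build rn7. Which annotation and strand setting were counted is not given in the sources, and a gene's reads may include those of an overlapping or antisense neighbour. Columns were matched to samples by library names.

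The test was edgeR 4.0.16 under R 4.3.3: filterByExpr on the 4 groups (minimum 0.603 CPM), TMM, and a robust quasi-likelihood fit, with sex as a term for both sexes and contrasts of the 4 groups otherwise. Adjustment was by Benjamini-Hochberg over 17856 genes, with a threshold of 0.05. The SE of a fold change is its size over the root of F. Marker means and correlations used log2 CPM with a prior count of 2. Transcript lengths were not used. Mean CPM helped to choose which genes to describe, and the text compares no level between channel genes. The levels of marker genes set beside the tissue label are not corrected for length. No 2 libraries agreed within sampling noise (lowest chi-square per gene 3.84 among 120 pairs), and each is 1 sample. On simulated counts of 17626 genes the fit over both sexes recovered 47.8% at a true change of 1.5-fold, 85.1% at 2-fold and 98.5% at 4-fold. In males these were 35.8%, 73.1% and 98.5%, and in females 1.49%, 23.9% and 81.8%. False calls in the simulation numbered 7 over both sexes, 5 in males and 3 in females. The main fits of the real counts called 14, 7 and 0 genes in the same order. These recovered shares were not computed for the channel genes alone. Channel genes varied more, with a median SD of log2 CPM of 0.51 against 0.30 over all genes tested. The shares may therefore be too high for them, and a 2-fold change in a channel gene is not excluded.

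The members, gene lists and tests were chosen with earlier results of these data known. Genes were named by rule: in each comparison those with an unadjusted p under 0.05 or the 3 with the smallest p, the member of each subfamily with the highest mean CPM, and in each marker list the 3 highest and 3 lowest r; the other members are given by their fold changes. Alternatives were RLE factors, no filter, DESeq2 1.42.0, limma 3.58.1 voom with quality weights, no sex term, the mean of the sexes, the replicate block, marker covariates, library-number sets, and each library left out. Deviations of males with the same replicate number correlated at -0.07 to 0.21. In groups of 2 females the deviations from the mean mirror each other, so both female pairs have the same value, -0.17. These values cannot exclude a pairing.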

Additional observations from a re-analysis of the deposited data

Results flagged for a closer look

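Within the 6 males of each exposure, the gap between the highest or lowest library and its neighbour was set against the range of the group for 23 genes, 46 groups in all, of which 5 exceeded the 95% critical value for groups of 6. Chance flags about 1 in 20 groups. Fentanyl male 5 was far above the other fentanyl males for Kcnh4 (59.5 CPM, the next 44.6) and Kcnd2 (213 CPM, the next 174), and fentanyl male 2 far below them for Kcnh5 (27.4 CPM, the next 44.7) and Kcnma1 (9.35 CPM, the next 33.4). Saline male 3 was far above the other saline males for Kcnj9 (24.6 CPM, the next 18.2).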

How the results depend on the processing

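In each of the 4 comparisons 0 channel genes were called in the main fits, and leaving out each library in turn gave 0 as well. Limma voom called 11 over both sexes and 1 in males. Leaving out saline males numbered 1 and 2 gave 15 over both sexes and 2 in males. In these fits exposure and number set cannot be told apart. Leaving out those numbered 9 to 12, added after seeing the data, gave 10 in males, with Kcns2 at -0.078 and Kcnk2 at -0.071. RLE factors, no filter, DESeq2, no sex term, the replicate block, the covariates and leaving out fentanyl male 2 with saline male 3 gave 0. Leave-one-out medians of the 41 genes ran from 0.02 without fentanyl male 5 to 0.11 without saline male 1 over both sexes, and from 0.044 without fentanyl male 2 to 0.32 without saline female 2 for the difference between the sexes. With the covariates the medians in females and for the difference were 0.034 and -0.099. For all genes tested, against 14, 7, 0 and 0 in the main fits, DESeq2 called 87, 43, 20 and 4. Voom called 1031 over both sexes and 87 in males, the mean of the sexes 5, the covariates 5 over both sexes and 1 in females, the set without saline males 1 and 2 1226, 71 and, in females, 14, and the set without those numbered 9 to 12 955. Leaving out fentanyl male 2 with saline male 3 gave 1 for the difference between the sexes. Leave-one-out counts ran from 9 without fentanyl male 6 to 29 without saline male 2 over both sexes, from 4 to 9 in males, from 0 to 5 in females and from 0 to 5 for the difference. With the replicate number as a block, 2 genes were called over both sexes and 3 in males, and 0 channel genes. The labels do not say whether the replicate numbers pair animals. Of the 12 males, 2 correlated best with their own number, which cannot exclude a pairing. With the female numbers crossed in the block, 16 genes were called over both sexes and 0 in females.

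Genes past the threshold in the correlations, against 22 with the striatal, 4 with the central amygdala, 2 with the cortical, 19 with the myelin and 26 with the astrocyte mean, were in the same order 3, 1, 0, 0 and 3 within fentanyl, 8, 0, 1, 6 and 6 within saline, 5, 0, 0, 3 and 6 within libraries numbered 1 to 6, and 0 in each list within those numbered 9 to 12, where 6 libraries limit the smallest p. Without the 2 farthest libraries there were 1 for central amygdala, 0 for cortical and 9 for myelin, with prior count 0.5 there was 1 for cortical, and without fentanyl male 2 and saline male 3 there were 1 for central amygdala and 5 for cortical. Relations that changed sign were those of Kcnj11 with central amygdala (0.42 without the farthest libraries, 0.14 within fentanyl), Kcna1 with central amygdala (0.094 within fentanyl, 0.010 within numbers 1 to 6), Kcna1 with cortical (0.37, 0.13 and 0.54 in those settings, and 0.29 without fentanyl male 2 and saline male 3), Kcnj9 with cortical (-0.089, -0.15 and -0.096), Kcnd2 with cortical (0.043 within fentanyl) and Kcnn1 with cortical (0.18 within fentanyl, 0.21 within numbers 1 to 6). The cause was not tested.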
